A study of Mus musculus with 12 samples.

Results

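Cultured mouse islets given a mixture of inflammatory cytokines were compared with islets given vehicle, with no inhibitor in either group. The comparison rests on 6 of the 12 libraries of the study, chosen by the treatment named for each sample, and covers all 14089 genes of the count table. Islets came from C57BL/6J mice, were isolated from pancreata perfused with collagenase, and were treated for 24 hours. The cytokine group (replicates 1, 3 and 4) received interferon γ (IFN-γ, 100 ng/ml), TNF-α (tumour necrosis factor, 10 ng/ml) and IL-1β (interleukin-1, 5 ng/ml), and the vehicle group (replicates 1, 2 and 4) received none of these. The other 6 libraries held ML351, an inhibitor of 12/15-lipoxygenase, at 10 µM alone or with the cytokines, and served here to estimate the spread between libraries and for a test of whether the cytokine response differed with the inhibitor. The labels used here state neither age nor sex of the mice, nor what the vehicle was. They also leave it unsaid if each library had its own animals or culture. The p-values below therefore refer to the spread among these libraries, part or all of which may be technical. Intact islets hold β, α, δ and PP cells with some endothelial, stromal and immune cells, and a lower level of a transcript in such bulk RNA cannot tell fewer cells of a type from less RNA per cell.

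IL-1β and TNF-α signal through receptor complexes whose adaptors lead to the NF-κB transcription factors, held in the cytoplasm by IκB proteins until these are degraded. IFN-γ binds a receptor coupled to the kinases JAK1 and JAK2, whose signal reaches genes with the palindromic GAS element, and interferon regulatory factors (IRFs) bind the ISRE. The 3 cytokines together are a common model of the inflamed islet in type 1 diabetes, in which β cells make nitric oxide, present antigen on MHC class I and secrete less insulin.

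The promoters of 7 genes that rose are shown first, chosen because each carries letters of at least 1 of the motifs searched. The promoter of Tap1, a gene that also rose, held none of the 5 motifs in this window and is not printed. They are the 250 bases before the RefSeq start on GRCm38.p6, printed 5′ to 3′ on the strand of the gene, with matches in capitals to the GAS (TTCNNNGAA), the ISRE (GAAA and GAAA, 2 bases apart), the κB consensus, the AP-1 site (TGANTCA) or the ATF4 element (TGATGNAA), each searched on both strands. Irf1, an interferon-responsive transcription factor (chr11:53769764-53770013, + strand), has a GAS at -90 to -82 and a κB match at -13 to -4, counted from the start. The guanylate-binding protein gene Gbp2 (chr3:142620413-142620662, + strand) has an AP-1 match at -102 to -96 and an ISRE at -59 to -50, the latter in the reverse orientation, and the immunity-related GTPase gene Igtp (chr11:58199306-58199555, + strand) has a GAS at -45 to -37 followed by an ISRE at -34 to -25. Cxcl10, which encodes a chemokine for T cells (chr5:92348890-92349139, - strand), has an ISRE at -213 to -204, κB matches at -159 to -150 and -103 to -94, and an AP-1 match at -74 to -68. B2m, the light chain of MHC class I (chr2:122147437-122147686, + strand), has an ISRE at -139 to -130 and a κB match at -126 to -117. Nfkbia, which encodes the inhibitor IκBα (chr12:55492648-55492897, - strand), has a κB match at -29 to -20, and the asparagine synthetase gene Asns (chr6:7693210-7693459, - strand) has an ATF4 element at -23 to -16. The last 4 of the genes printed below were chosen after their values and motif matches were seen, and a match is a run of letters, not a measured binding site.
Irf1: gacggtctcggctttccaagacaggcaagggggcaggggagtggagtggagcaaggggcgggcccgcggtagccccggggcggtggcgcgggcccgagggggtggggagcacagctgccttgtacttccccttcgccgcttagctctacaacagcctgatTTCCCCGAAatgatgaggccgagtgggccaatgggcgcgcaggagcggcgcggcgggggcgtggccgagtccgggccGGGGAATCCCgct
Gbp2: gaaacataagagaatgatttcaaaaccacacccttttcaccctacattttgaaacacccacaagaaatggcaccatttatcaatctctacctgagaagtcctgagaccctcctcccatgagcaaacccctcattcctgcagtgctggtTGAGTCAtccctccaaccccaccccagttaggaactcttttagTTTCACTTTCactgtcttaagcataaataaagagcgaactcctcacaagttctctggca
Cxcl10: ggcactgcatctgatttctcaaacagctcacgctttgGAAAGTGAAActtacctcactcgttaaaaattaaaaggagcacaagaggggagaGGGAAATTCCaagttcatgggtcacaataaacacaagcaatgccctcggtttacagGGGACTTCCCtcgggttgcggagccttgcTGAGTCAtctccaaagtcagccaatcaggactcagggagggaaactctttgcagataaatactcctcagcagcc
Igtp: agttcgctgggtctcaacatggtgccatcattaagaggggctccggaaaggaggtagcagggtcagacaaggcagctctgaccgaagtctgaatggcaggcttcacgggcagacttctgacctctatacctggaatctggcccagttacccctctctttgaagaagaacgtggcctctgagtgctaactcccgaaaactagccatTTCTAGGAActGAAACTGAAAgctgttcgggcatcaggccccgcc
B2m: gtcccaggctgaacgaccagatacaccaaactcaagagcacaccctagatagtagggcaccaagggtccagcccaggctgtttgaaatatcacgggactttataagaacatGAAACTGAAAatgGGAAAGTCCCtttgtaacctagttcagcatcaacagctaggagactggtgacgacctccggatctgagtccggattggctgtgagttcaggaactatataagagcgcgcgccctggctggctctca
Nfkbia: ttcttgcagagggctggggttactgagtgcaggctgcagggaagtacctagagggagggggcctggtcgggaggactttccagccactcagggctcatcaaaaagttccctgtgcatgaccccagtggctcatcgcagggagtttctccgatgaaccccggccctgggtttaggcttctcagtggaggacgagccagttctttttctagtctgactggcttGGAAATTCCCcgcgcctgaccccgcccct
Asns: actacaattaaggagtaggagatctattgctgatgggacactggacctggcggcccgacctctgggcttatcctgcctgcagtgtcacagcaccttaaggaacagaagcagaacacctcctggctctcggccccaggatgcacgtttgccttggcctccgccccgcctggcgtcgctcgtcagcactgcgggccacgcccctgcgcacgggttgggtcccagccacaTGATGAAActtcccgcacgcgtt

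The cytokines altered most of the measured transcriptome. By the quasi-likelihood test of edgeR, 4969 genes (35.3%) were higher and 5240 (37.2%) lower at an adjusted p under 0.05, so that a call in one direction was common among all genes. Therefore a stricter test, that the change exceeded 2-fold, is used below for most counts. It called 1487 genes higher (10.6%) and 1615 lower (11.5%), and "over 2-fold" refers to this test. In 10791 genes (76.6%) the 3 vehicle and the 3 cytokine libraries did not overlap. A bare number in brackets after a gene is its log2 fold change, cytokines against vehicle, and adjusted p-values are those of edgeR unless another tool is named. The median log2 fold change of all genes was -0.02, while 200 genes had a rise above 5 and 64 a fall below -5 on the log2 scale. Upper quartile scaling moved the median of all genes by -0.12 and the share of higher genes among over 2-fold calls from 47.9% to 40.0%. Levels are given as CPM, the count of a gene scaled by its library total and the TMM factor of edgeR. Of the over 2-fold calls, 435 higher genes reached a mean CPM of at least 100 with cytokines, among 1559 genes at that level. Those lower that had been at 100 CPM or more with vehicle numbered 193, among 1282 genes. By level with vehicle, rises were most frequent in the lowest decile of genes (26.5% over 2-fold higher, 6.03% lower). The vehicle level also enters the fold change, and genes so low can hardly be called lower. The count table may also hold such genes only through their level in another group. The shares of this decile are therefore partly set by the grouping, and no conclusion is drawn from them. In the highest decile 8.16% were over 2-fold higher and 14.05% lower. Levels of different genes are compared as TPM, counts divided by exon length and scaled to the same sum in every library. Of the 50 genes with the highest TPM in each group, 22 were in both.

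**Figure D1:**
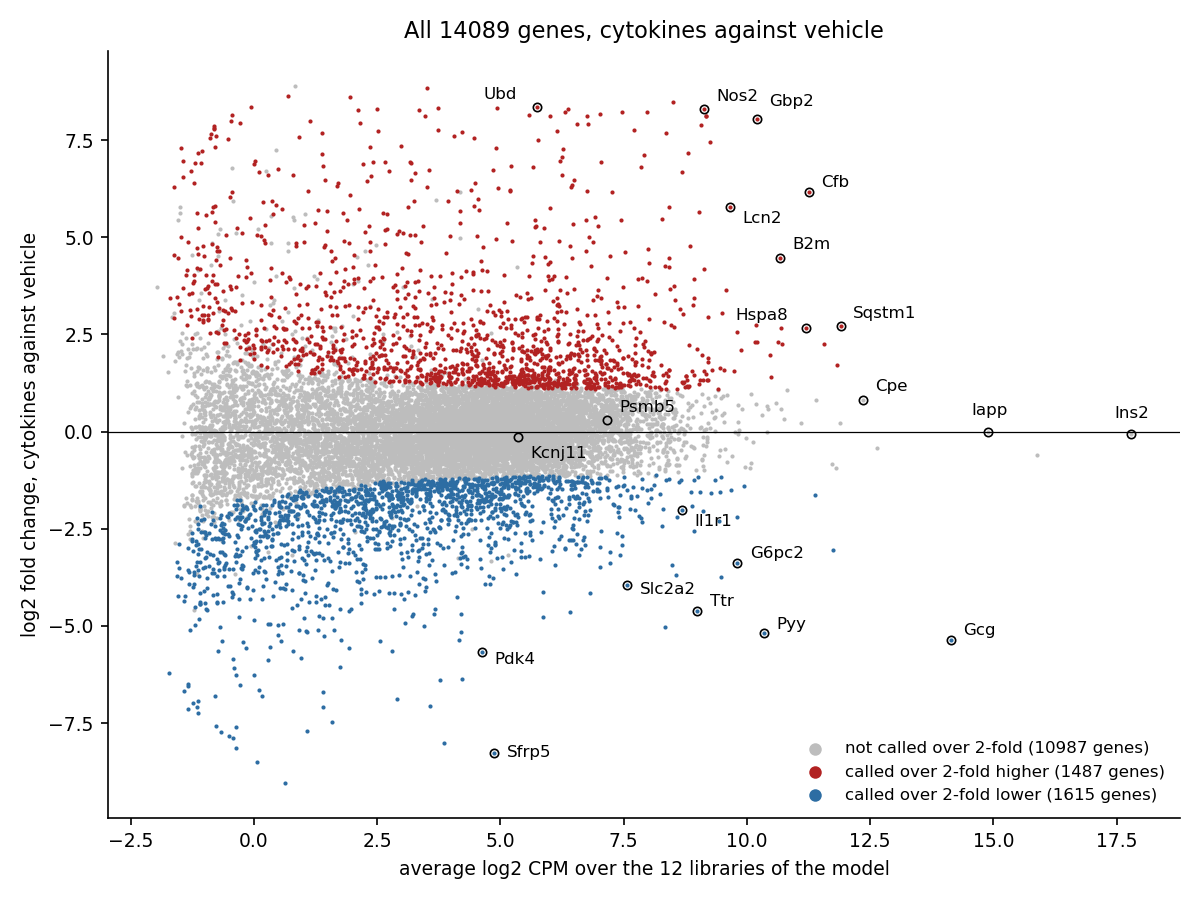
Each point is 1 of 14089 genes, with its average log2 CPM over the 12 libraries of the model on the x axis and its log2 fold change, cytokines against vehicle, on the y axis. Red points (1487) were called over 2-fold higher and blue points (1615) over 2-fold lower, Nos2 and Gbp2 lie at the top with rises above 8, and Ins2 and Iapp, the most abundant of the labelled genes, lie near 0.

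Library totals of the 6 libraries ran from 20664596 to 25027095 counts, and 87.8% of the variance of log2 CPM lay on a first principal component that separated the groups. Cytokine replicate 1 stood apart from the other cytokine libraries on the second component (4.85% of the variance), and its summed acinar marker level was 53.5 CPM against 682 and 979 CPM in cytokine replicates 3 and 4 and 789, 539 and 261 CPM in vehicle replicates 1, 2 and 4. Of the 23 acinar markers 22 were not called, and Bhlha15, an acinar transcription factor, fell (-3.27). Among islet hormones, the most abundant message was that of insulin: Ins2 was at 239876, 226250.0 and 262043 CPM in vehicle replicates 1, 2 and 4 and at 214352, 229519 and 251183 CPM in cytokine replicates 1, 3 and 4, ranges that overlap (log2 fold change -0.07, adjusted p = 0.54).

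Receptors for the 3 cytokines moved in different directions. Il1r1, the signalling receptor of IL-1 (chromosome 1, 40225080 to 40317257), was at 664, 648 and 654 CPM with vehicle and 159, 161 and 168 CPM with cytokines, in the replicate order given above. All 3 cytokine libraries lay below all vehicle libraries (log2 fold change -2.01, SE 0.069, edgeR adjusted p = 6.7e-14), and Il1r1 was the single member of 38 receptors and adaptors called over 2-fold lower. Tnfrsf1a, the TNF receptor with a death domain, rose from 61.3, 56.7 and 49.8 to 250.7, 244 and 227 CPM (2.11). The IFN-γ receptor chains both rose, Ifngr2 by 2.20 and Ifngr1, the ligand-binding chain, by 1.06 on the log2 scale. Il1rap, the co-receptor that Il1r1 needs to signal, was at 7.40 and 9.39 CPM (0.35, adjusted p = 0.14, and 0.54 with an adjusted p of 0.035 without vehicle replicate 2), and the soluble antagonist gene Il1rn rose (3.63). Downstream, Myd88, the adaptor of IL-1 receptors, rose by 2.09, Irak2 by 2.29 and Traf2, an adaptor of TNF receptors, by 1.99, whereas Map3k7, which encodes the shared kinase TAK1, fell (-0.51) and Irak1 did not pass (-0.02, adjusted p = 0.77, but called lower with upper quartile scaling at -0.14). In all, 16 of the 38 were over 2-fold higher, with a median log2 fold change of 1.05.

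In the IFN-γ pathway the feedback inhibitor gene Socs1 had the highest log2 fold change of 26 genes. Socs1, which blocks JAK kinases (chromosome 16, 10782240 to 10785536), was close to absent with vehicle at 0.976, 1.07 and 0.460 CPM and reached 53.4, 40.4 and 48.5 CPM (log2 fold change 5.81, SE 0.2, edgeR adjusted p = 7.2e-13), with no overlap. Socs3 rose less, from a mean of 24.9997 to 49.9 CPM (1.00), and Socs2 and Cish, feedback genes known from growth hormone and prolactin signalling, fell by 2.46 and 1.00. Stat2 rose by 3.67, Jak2 by 1.79 and the phosphatase gene Ptpn2, a candidate gene of type 1 diabetes, by 1.67, while Stat5a was at 11.7 and 11.8 CPM (0.02, adjusted p = 0.89). Of the 26 genes of this list, 8 were over 2-fold higher and 1, Socs2 (-2.46), over 2-fold lower. Of 8 interferon regulatory factors 6 were over 2-fold higher. Irf1 (chromosome 11, 53770014 to 53778374) rose from 57.2, 57.3 and 58.2 to 1109, 1009.7 and 1002 CPM (log2 fold change 4.18, SE 0.076, edgeR adjusted p = 1.6e-17), Irf7 by 5.45 and Irf9 and Irf8 by 3.40 and 3.40, whereas Irf3, which is activated by phosphorylation, did not pass (0.28, adjusted p = 0.063, and 0.40 with an adjusted p of 0.017 without vehicle replicate 4).

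Among NF-κB genes both inhibitors and subunits rose. Nfkbia was at 37.0, 34.1 and 39.5 CPM with vehicle and 379, 310.2 and 329.7 CPM with cytokines (log2 fold change 3.20, SE 0.084, edgeR adjusted p = 1.9e-15), and its 3 cytokine libraries were all above the vehicle libraries. Tnfaip3, the ubiquitin-editing inhibitor A20, rose by 4.50 and Tnip1, its partner, by 3.09. Of the subunits, Nfkb2 rose by 2.92, Relb by 2.45 and Rela by 2.06, while Nfkb1 did not pass (0.18, adjusted p = 0.1), though it was called without vehicle replicate 4 (0.31, adjusted p = 0.0043). The inhibitor kinase genes split: Ikbkg rose (1.82) and Ikbke rose (2.42), but the catalytic subunits Chuk and Ikbkb fell slightly (-0.26 and -0.23), the second a call lost without cytokine replicate 1 (adjusted p = 0.055) or 3 (adjusted p = 0.094) in edgeR. In all, 17 of 26 members were over 2-fold higher and 0 over 2-fold lower (21 and 2 called in either degree, median 2.03).

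**Figure D2:**
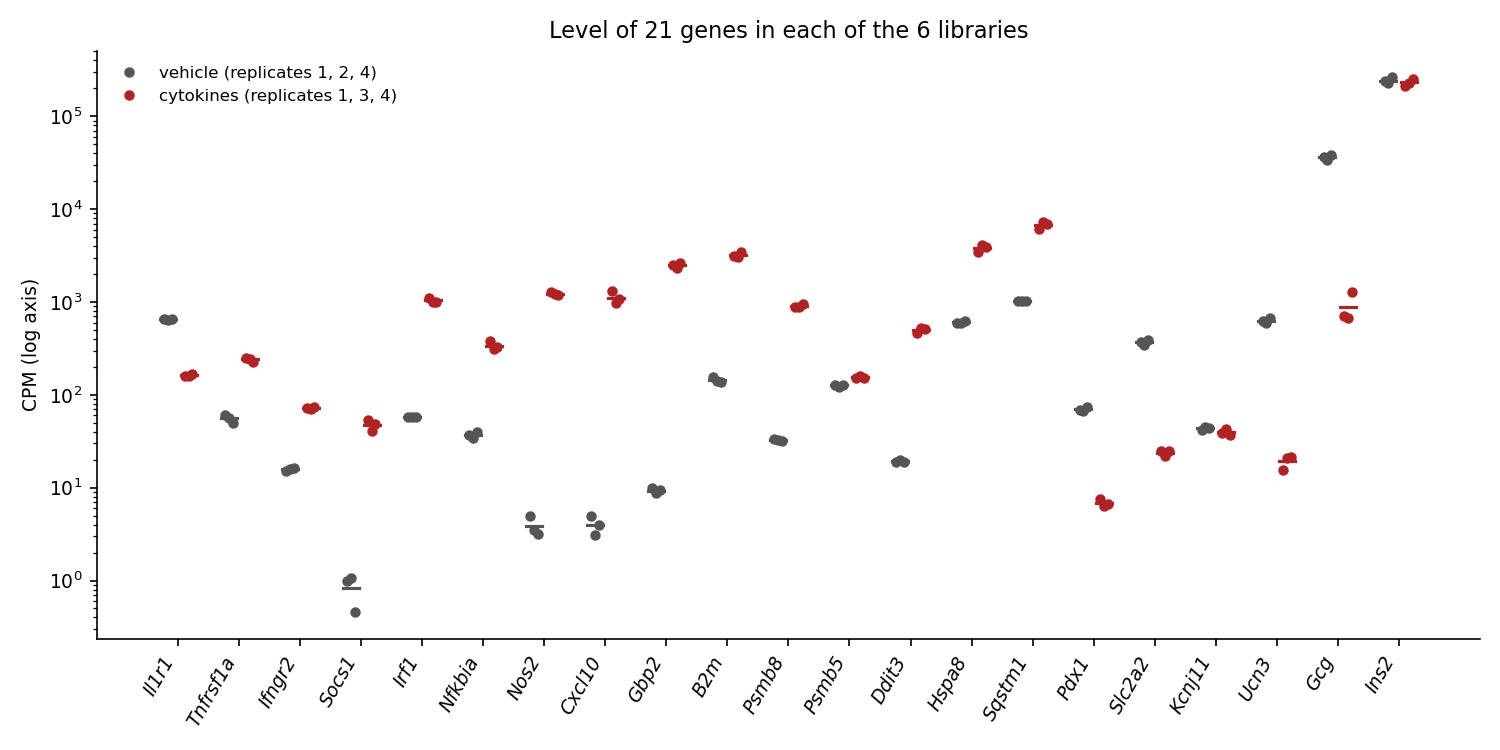
Points give the CPM, on a log axis, of 21 genes in vehicle replicates 1, 2 and 4 (grey) and cytokine replicates 1, 3 and 4 (red), and short lines give group means. Il1r1 lies lower with cytokines while Tnfrsf1a and Ifngr2 lie higher, Psmb5 and Kcnj11 lie close together in both groups, and Gcg lies far lower with cytokines while Ins2 overlaps.

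Islets also raised transcripts of inflammatory ligands. Il6 went from 0.509, 0.888 and 0.322 to 59.2, 48.0 and 76.4 CPM (6.73), and Il1b, itself one of the cytokines given as protein, from 2.16, 1.82 and 2.39 to 33.7, 35.8 and 38.1 CPM (4.07). The growth factor gene Csf1 rose to 255 CPM (3.43) and Il18bp, a secreted inhibitor of interleukin-18, to 514 CPM (3.86). Of 34 interleukin and growth cytokine genes 14 were over 2-fold higher and 1, Ebi3 (-2.28), over 2-fold lower. Ebi3 was low in both groups (1.501 and 0.302 CPM), DESeq2 did not call it over 2-fold, and a filter of at least 2 CPM in 3 libraries left it out. Chemokine genes rose in runs along the chromosomes. All 3 tested genes from Cxcl9 to Cxcl11 on chromosome 5 (92321347 to 92365485) and 4 of 5 from Cxcl1 to Cxcl5 (90759360 to 90905938) were over 2-fold higher. So were all 4 tested genes from Ccl2 to Ccl12 on chromosome 11 (82035571 to 82116799). Of 32 chemokine genes listed 23 were in the count table, which lacked Ccl11, and genes silent in every library may be missing from it. Ccl12 and Ccl8 were at 0.03 and 0.07 CPM with vehicle and at 0.52 and 9.55 CPM with cytokines. Cxcl10 was at 4.92, 3.13 and 3.96 CPM with vehicle and at 1299, 978 and 1069 CPM with cytokines (8.11), and Ccl2, which attracts monocytes, at 3.31, 2.71 and 2.95 and 593, 609 and 661 CPM (7.69). Those that fell were Cxcl12 (-1.07), Cxcl14 (-1.40), Ccl27a (-0.76) and Cx3cl1 (-0.52). The call of Cx3cl1 was lost under 6 settings (adjusted p = 0.05 to 0.13), among them leaving out vehicle replicate 2 or 4 or cytokine replicate 3, and its value was -0.29 without cytokine replicate 1. The share of all counts in a library taken by 23 chemokine genes was 0.00826, 0.00851 and 0.00867% with vehicle and 0.299, 0.263 and 0.288% with cytokines.

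Interferon-induced GTPases had the highest median log2 fold change of the 52 pathway lists. These proteins attack the vacuoles of intracellular microbes, and 18 of 19 measured members were over 2-fold higher, with a median log2 fold change of 7.51, or 7.44 with Gbp2b, which had no count with vehicle, set to the fold that 3 counts would give. Gbp2 (chromosome 3, 142620602 to 142638008) rose from 9.80, 8.74 and 9.39 to 2485, 2345 and 2601 CPM (log2 fold change 8.05, SE 0.11, edgeR adjusted p = 5e-19). All 5 tested genes of the cluster on chromosome 3 (142493978 to 142638008) and all 6 tested of that on chromosome 5 (105014150 to 105346472) were over 2-fold higher. The exception among the 19 members was Irgq (-0.80), a divergent member outside the clusters. The 19 genes took 0.0151, 0.0150 and 0.0143% of counts with vehicle and 1.11, 1.00 and 1.04% with cytokines. Because the Gbp, Tgtp, Ifit3, Oas1, Slfn, Saa, Ifnl, Hspa1 and H2 genes have near-identical copies, reads may be assigned to the wrong copy and the values of single members are uncertain.

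Of the antiviral effectors,  44 of 50 were over 2-fold higher and 0 lower (median 3.96). Isg15, a ubiquitin-like modifier, rose from 0.594, 0.981 and 1.15 to 68.6, 62.9 and 68.6 CPM (6.20), its protease gene Usp18 by 3.07, and Xaf1 by 6.29. Members that did not pass included Ifi27l2a (1.15, and called at 1.45 without cytokine replicate 1), Ifitm2 (0.02) and Apobec1 (-0.04). Of 24 sensors of nucleic acids and microbes 16 were over 2-fold higher, among them Zbp1, a sensor of Z-form nucleic acid, which rose from 0.976, 0.514 and 0.184 to 173, 165 and 173 CPM (8.21), Dhx58 (4.33), Ddx58, which encodes RIG-I (2.59), and Tlr2 (2.46). Mavs, the adaptor on which RIG-I signalling depends, fell (-0.68), and Pycard, the inflammasome adaptor, did not pass (0.09, adjusted p = 0.56).

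Genes of MHC class I antigen presentation rose, from those that cut peptides to those of surface display. The immunoproteasome subunit genes, which replace the catalytic subunits of the standard proteasome, were all over 2-fold higher: Psmb8 went from 33.6, 32.7 and 32.1 to 886, 873 and 940.1 CPM (log2 fold change 4.78, SE 0.062, edgeR adjusted p = 5e-19), Psmb9 rose by 4.61 and Psmb10 by 3.35, and the activator genes Psme1 and Psme2 by 2.82 and 3.43. The genes they substitute had smaller log2 fold changes. Psmb5 was at 128, 122 and 128 and 153, 160.4 and 151 CPM (0.29, adjusted p = 0.0002), Psmb6 rose by 0.85 and Psmb7 by 0.23, the last a call lost with upper quartile scaling (0.11, adjusted p = 0.12). Of 35 standard subunit and regulator genes 31 rose, 8 of them over 2-fold (median 0.82), while Psmd6 (-0.52) and the nuclear activator gene Psme4 (-1.42) fell.

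The peptide transporter gene Tap1 (chromosome 17, 34187553 to 34197225) rose from 14.3, 14.3 and 14.3 to 665, 625 and 605 CPM (5.46), and B2m (chromosome 2, 122147686 to 122153083) from 156, 140.3 and 137 to 3159.9, 3059 and 3427 CPM (4.48). H2-K1 and H2-D1, the classical heavy chains, were already at 584 and 446 CPM with vehicle and rose by 2.26 and 2.68, and Nlrc5, a transactivator of this gene set, by 5.67. Of 21 class I genes 16 were over 2-fold higher, and Pdia3, H2-Q1 and H2-Q2 did not pass (0.00, 0.07 and -0.01, the last called lower with upper quartile scaling at -0.13). In the whole MHC region on chromosome 17 (33996017 to 37274484), 44 of 106 tested genes were over 2-fold higher and 1 lower. Of 12 MHC class II genes listed, which professional antigen-presenting cells express, 8 were in the count table, and all 8 were over 2-fold higher. H2-Eb2, H2-DMb2, H2-Oa and H2-Ob were not in it, so their response is unknown. Ciita, the master regulator of class II genes, was at 0.0849, 0.140 and 0.0921 CPM with vehicle and 10.3, 9.52 and 9.17 CPM with cytokines (6.45). Cd74, the invariant chain, rose by 4.23. Macrophages carry these transcripts too: 10 of 15 macrophage markers rose and their summed level was 228, 232 and 225 CPM with vehicle and 349.9, 366 and 348 CPM with cytokines, but C1qa was at 58.8 and 59.6 CPM (0.02, adjusted p = 0.82), and their part in the class II result was not tested. Ubd, a ubiquitin-like tag for proteasomal degradation, rose from 0.255, 0.327 and 0.276 to 85.5, 94.7 and 103 CPM (8.34).

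Surface ligands of both activating and restraining kinds rose, with 16 of 25 over 2-fold higher and 0 lower. Icam1, which binds leukocyte integrins, went from 7.77, 6.17 and 6.26 to 949, 951 and 1015 CPM (7.17), Cd40, a TNF receptor family member, from 3.35, 4.39 and 3.50 to 415, 438 and 411 CPM (6.81), and Cd274, the checkpoint ligand PD-L1, from 18.5, 21.7 and 19.8 to 1045, 1005 and 958 CPM (5.65). Cd200 and Cadm1 fell (-0.46 and -0.38).

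Complement genes moved in both directions, with 9 of 21 over 2-fold higher and 2 lower. Cfb, factor B of the alternative pathway (chromosome 17, 34856374 to 34862518), became one of the most abundant messages, going from 71.9, 69.1 and 49.996 to 4585, 4097 and 5116 CPM (log2 fold change 6.17, SE 0.22, edgeR adjusted p = 2.4e-09) and from rank 1520 to rank 10 among all genes by TPM. C1ra, C3 and C2 rose by 7.10, 4.87 and 4.05, and so did Serping1, the C1 inhibitor (3.05). Cfi, the protease that inactivates C3b, fell from 8.83, 9.11 and 8.01 to 0.605, 0.589 and 0.554 CPM (-3.88).

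The nitric oxide synthase gene rose steeply while genes of its cofactor and substrate moved both ways. Nos2 (chromosome 11, 78920787 to 78960254) went from 4.97, 3.50 and 3.18 to 1279, 1222 and 1176 CPM (8.29). Gch1, which makes the cofactor tetrahydrobiopterin, was at 568, 557 and 591 CPM and rose to 722, 726 and 760.5 CPM (0.36, adjusted p = 1.8e-05), while the later cofactor enzymes Pts and Qdpr fell (-0.92 and -0.85). The arginine transporter gene Slc7a2 fell from a mean of 151 to 72.5 CPM (-1.05), and Arg1, the arginase that competes for the substrate, from 33.1, 34.0 and 35.7 to 0.806, 0.540 and 1.56 CPM (-5.15). Among 22 genes of this list 2 were over 2-fold higher (9.09%) and 3 over 2-fold lower (13.6%), shares near the 10.6% and 11.5% of all genes. Under upper quartile scaling 6 were over 2-fold lower. Polyamine breakdown genes rose, Smox, the spermine oxidase, by 3.64 and Sat1 by 2.40, while the synthesis genes Srm and Sms fell by 0.90 and 1.19. Odc1 rose (1.11) and so did Eif5a, the protein modified with spermidine (1.07).

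Antioxidant and iron genes included large changes in both directions. Sod2, the mitochondrial superoxide dismutase, rose from 98.6, 88.5 and 100.8 to 868, 909.7 and 963 CPM (3.25), whereas Gpx3, an extracellular glutathione peroxidase and one of the more abundant antioxidant messages with vehicle, fell from 719, 695 and 708 to 47.4, 42.6 and 76.1 CPM (-3.68). Of 29 enzymes of this kind 6 were over 2-fold higher and 1 lower. Among 35 NRF2 and glutathione genes 11 were over 2-fold higher, with Hmox1 at 3.93 and the cystine transporter Slc7a11 at 3.65, and Gstt1 over 2-fold lower (-1.59). Iron storage and capture rose and export fell. Fth1 and Ftl1, the ferritin chains, rose by 2.30 and 1.72, Lcn2, a siderophore-binding protein, went from 41.6, 30.9 and 17.6 to 1527, 1583 and 1868 CPM (5.78), and Slc40a1, the iron exporter ferroportin, from 128, 128 and 120.4 to 17.01, 15.2 and 16.8 CPM (-2.94). The metallothioneins Mt1 and Mt2, neighbours on chromosome 8, rose by 2.73 and 3.75.

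The integrated stress response, in which ATF4 and CHOP (Ddit3) act after translation is slowed, was uneven. Ddit3 went from 18.97, 20.1 and 18.97 to 464, 520.2 and 518 CPM (4.69), Atf3 rose by 4.90 on the log2 scale, Trib3 by 3.19 and Ppp1r15a by 3.24. Asns was at 368, 343 and 375 and 518, 533 and 541 CPM (0.55), Shmt2 at 61.3 and 61.4 CPM (0.00), and Aldh1l2 and Pycr1 fell (-0.85 and -1.05). Atf4 itself rose by 0.97, and 10 of 36 members were over 2-fold higher and 0 lower. Chaperones of the endoplasmic reticulum were called in both directions, with 11 of 36 higher and 19 lower (median -0.21). Among all genes 35.3% were higher and 37.2% lower. By the over 2-fold test 2 of the 36 were higher (5.56%) and 5 lower (13.9%), beside 10.6% and 11.5% of all genes. Hspa5, the chaperone BiP, was at 1893, 1777 and 1900.4 and 2041, 2124 and 2273 CPM (0.21, adjusted p = 0.0054). That call was lost with upper quartile scaling (log2 fold change 0.09, adjusted p = 0.19). Ero1lb, the oxidase for proinsulin folding, fell from 1435, 1367 and 1543 to 302, 318 and 321 CPM (-2.21) while its paralog Ero1l rose (1.79), and the calcium pump genes Atp2a2 and Atp2a3 fell by 1.40 and 1.57.

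Genes of cytosolic protein synthesis rose by small amounts. Of 80 cytosolic ribosomal protein genes 78 were higher and 0 lower, against 35.3% higher among all genes, with a median of 0.89. Of these, 9 passed the over 2-fold test, 5 with upper quartile scaling and 14 without cytokine replicate 1 or with the 6 libraries alone. Rplp0 went from 257, 245 and 250.6 to 585, 590.5 and 615 CPM (1.25), Rps20 rose by 2.12, and Rpl30 and Rpl22l1 did not pass (0.10 and -0.12). The list took 0.452, 0.456 and 0.434% of counts with vehicle and 0.777, 0.807 and 0.834% with cytokines. Aminoacyl-tRNA synthetases, which charge tRNAs, differed by compartment: 18 of 22 cytosolic genes were higher and 2 lower (median 0.81), with Kars at 2.11 and Wars, an interferon-inducible member in many cells, at 0.84, whereas of 20 mitochondrial genes 5 were higher and 9 lower (median -0.10). Mitochondrial ribosomal protein genes lay between, with 51 of 78 higher and 11 lower (median 0.44).

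Of 30 amino acid transporters 4 were over 2-fold higher (13.3%) and 6 over 2-fold lower (20%), beside 10.6% and 11.5% of all genes. Slc7a8 went from 284, 284 and 288 to 50.6, 46.0 and 43.0 CPM (-2.62) and Slc38a4 fell by 1.94 on the log2 scale, while Slc3a2, the shared heavy chain, rose (1.49).

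**Figure D3:**
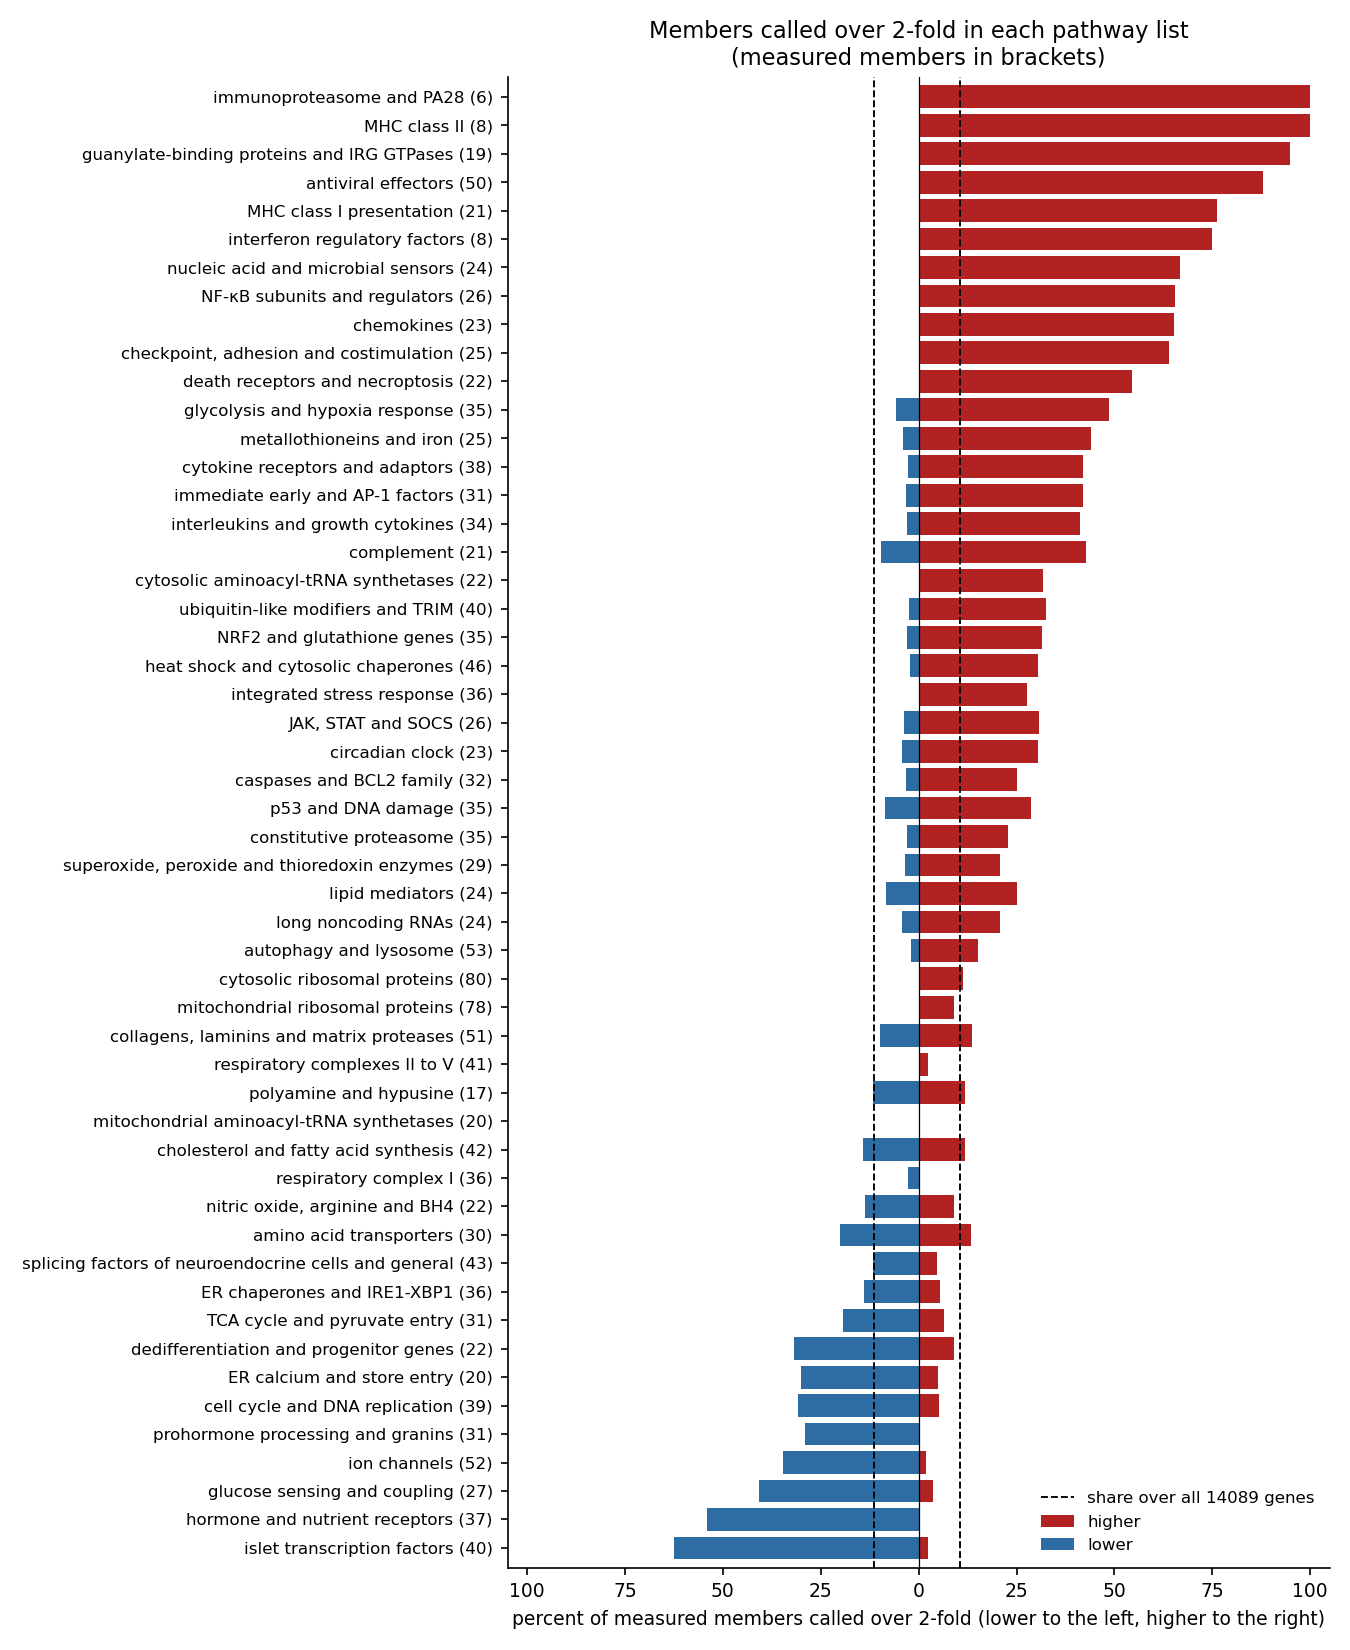
Bars give the percent of measured members of 52 pathway lists called over 2-fold higher (red, to the right) or lower (blue, to the left), with the number of measured members in brackets and dashed lines at the shares over all genes, 10.6% and 11.5%. Lists of interferon-induced GTPases, MHC class II genes and the immunoproteasome lie at the top and those of islet transcription factors and hormone receptors at the bottom, and the ribosomal protein lists lie near the dashed line although 78 of 80 cytosolic members were higher by a smaller amount.

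Most genes of the combined glycolysis and hypoxia list rose, and the list of the tricarboxylic acid cycle and pyruvate entry held calls in both directions. In the glycolysis and hypoxia list 25 of 35 genes were higher and 5 lower, or 8 lower with upper quartile scaling. Of 35 glycolysis and hypoxia genes 17 were over 2-fold higher and 2 lower. Pfkfb3, which activates phosphofructokinase, went from 6.66, 7.66 and 5.11 to 149.5, 133 and 115 CPM (4.35), Slc2a1, the glucose transporter of most cells, from 31.7, 34.9 and 20.1 to 388, 502 and 452 CPM (3.95), and the lactate exporter Slc16a1, which β cells normally keep silent, from 2.63, 2.01 and 1.61 to 15.1, 17.8 and 16.0 CPM (2.96). Vegfa, a hypoxia target, was at 271 and 266 CPM (-0.03, adjusted p = 0.67, but called lower with upper quartile scaling at -0.15). In the list of the tricarboxylic acid cycle and pyruvate entry 13 of 31 genes were higher and 13 lower. Among all genes 35.3% were higher and 37.2% lower. By the over 2-fold test 2 of the 31 were higher (6.45%) and 6 lower (19.4%), beside 10.6% and 11.5% of all genes. The list's median of 0.12 became -0.01 with upper quartile scaling. Irg1, which makes itaconate from cis-aconitate, rose from 0.721, 0.654 and 0.552 to 155, 125 and 134 CPM (7.73). Pcx, the pyruvate carboxylase that supplies the cycle in β cells, fell from 332, 328 and 338 to 89.2, 83.6 and 76.5 CPM (over 2-fold lower), Fh1, fumarase, fell by 2.21 and Pdk4 by 5.67 on the log2 scale. Few respiratory chain genes passed the over 2-fold test: 1 of 36 complex I genes, Ndufa4 (-1.44), and 1 of 41 genes of the other complexes, Cycs (1.21, 0 with upper quartile scaling).

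Most cytosolic chaperone genes rose, and autophagy and lysosome genes moved in both directions. Hspa8 went from 591, 595 and 626 to 3483, 4063 and 3936 CPM (log2 fold change 2.66, SE 0.082, edgeR adjusted p = 1.6e-14), Hsp90ab1 rose by 1.97, and 38 of 46 chaperone genes were higher (14 over 2-fold). Sqstm1, the autophagy receptor p62 (chromosome 11, 50199366 to 50210827), went from 1037, 1021 and 1034 to 6066, 7278 and 6949 CPM (2.71) and the protease gene Ctsb, cathepsin B, from 1098, 1059.9 and 1038 to 5099, 5045 and 5069.6 CPM (2.25). The 53 autophagy and lysosome genes took 0.987, 0.998 and 0.964% of counts with vehicle and 2.11, 2.20 and 2.11% with cytokines, and of the whole list Sqstm1 and Ctsb gained the most CPM. Of the 53, 32 were higher and 14 lower, with 8 over 2-fold higher and 1, Ctsf (-1.47), over 2-fold lower.

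Cell death genes rose on both the killing and the protective side. Fas, a death receptor, went from 0.891, 0.888 and 0.552 to 52.9, 47.8 and 48.8 CPM (5.99), Mlkl, the effector of necroptosis, from 3.10, 2.57 and 2.49 to 101.0, 99.6 and 113 CPM (5.26), and the inflammatory caspase genes Casp1 and Casp4 rose by 5.08 and 5.15. Birc3, an inhibitor of cell death, rose by 3.56 and Bcl2l1, which encodes BCL-XL, by 1.05. Bcl2 and Bik fell (-1.45 and -2.04). Of 22 death receptor and necroptosis genes 12 were over 2-fold higher and 0 lower. Among p53 and DNA damage genes 10 of 35 were over 2-fold higher, with Cdkn1a, an inhibitor of the cell cycle, at 29.6, 26.4 and 28.8 and 228, 229 and 227 CPM (3.01), Gadd45b at 4.87 and Mdm2 at 1.39, and Trp53 itself rose by 0.40. Cell cycle genes fell, 31 of 39 lower and 4 higher, with 12 and 2 of them over 2-fold. E2f1 went from 29.7, 25.04 and 27.1 to 5.00, 5.84 and 4.48 CPM (-2.42), Mki67 from a mean of 1.36 to 0.269 CPM (-2.28) and Ccnd1 fell by 1.25 on the log2 scale, against a rise of Cdk6 (3.29).

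Genes of endocrine identity fell, but not evenly. Of 40 islet transcription factors 25 were over 2-fold lower, and 1, Myc (2.91), over 2-fold higher. Pdx1 (chromosome 5, 147269959 to 147275848) was at 69.1, 67.5 and 74.9 CPM with vehicle and 7.58, 6.43 and 6.60 CPM with cytokines (-3.35), and Mafa, an activator of insulin genes in mature β cells, at 163, 156 and 177 and 6.69, 7.65 and 5.64 CPM (-4.63). Nkx2-2 fell by 2.60, Isl1 by 2.48, Neurod1 by 1.85 and Pax6 by 1.85, while Nkx6-1 fell by 1.03, not over 2-fold. Insm1 and Glis3 rose slightly (0.37 and 0.36). The α-cell factor Irx2 went from 14.6, 13.3 and 15.7 to 0.564, 0.932 and 0.957 CPM (-4.17). Of 22 progenitor and dedifferentiation genes 7 were over 2-fold lower and 2, Myc and Spp1 (1.90), higher: Neurog3, the endocrine progenitor factor, fell from 4.63, 3.88 and 4.51 to 0.121, 0.0491 and 0.151 CPM (-5.26), Aldh1a3, a marker of dedifferentiated β cells, by 2.06, and Sox9 did not pass (0.18, adjusted p = 0.84, and -0.60 without cytokine replicate 4).

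Hormone messages of α, δ and PP cells fell steeply, and those of β cells ranged from no call to a steep fall. Gcg was at 36333, 33883 and 37939 CPM with vehicle and 700.2, 670.1 and 1284 CPM with cytokines (-5.35), Pyy at 2851, 2936 and 2952 and 73.9, 60.9 and 106 CPM (-5.18), Sst at 1255, 1239 and 1288 and 103, 73.0 and 109.6 CPM (-3.73), and Ppy at 7551, 8001 and 8833 and 914, 735 and 1304 CPM (-3.05). In the 3 α- and PP-cell hormones Gcg, Pyy and Ppy cytokine replicate 4 held the highest of the cytokine values, still below every vehicle library. Ins1 fell by 0.60, and Iapp, which encodes amylin, was at 31764 and 31504 CPM (-0.01, adjusted p = 0.91). Ucn3, a peptide of mature β cells, went from 619, 592 and 667 to 15.5, 20.8 and 21.6 CPM (-5.03). Of 18 β-cell markers 14 fell, 12 over 2-fold, and 0 were called higher (median -2.19). Under 2 alternatives 1 marker, Adcyap1r1, was called higher. These were DESeq2 (1.23, DESeq2 adjusted p = 0.014) and the 6 libraries alone (1.22, edgeR adjusted p = 4.1e-05). As a share of counts, the 10 α-cell markers went from 3.78, 3.66 and 3.84% to 0.0950, 0.0890 and 0.146%, and the 31 prohormone, processing and granin genes from 42.8, 42.04 and 44.7% to 31.4, 32.3 and 34.5%.

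The proinsulin processing enzymes diverged. Pcsk1, the first convertase, fell from 897, 869 and 881 to 201, 201 and 239.8 CPM (-2.04), and Pcsk2 fell by 0.84 on the log2 scale, while Cpe, the carboxypeptidase that trims the products, rose from 3989, 3686 and 3992 to 6668, 6731 and 7269 CPM (0.82) and was the sixth gene by TPM with cytokines. The zinc transporter Slc30a8 fell from 805, 785 and 909.6 to 133, 144 and 151 CPM (-2.54). Chga fell by 0.41 and Chgb rose by 0.81.

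Most genes of glucose sensing and coupling were lower, 19 of 27 against 7 higher. Slc2a2, the glucose transporter GLUT2 (chromosome 3, 28697903 to 28731359), was at 372, 348 and 393 CPM with vehicle and 25.1, 21.98 and 24.7 CPM with cytokines (log2 fold change -3.95, SE 0.11, edgeR adjusted p = 8.6e-14), with no overlap. G6pc2, a glucose-6-phosphatase of the β cell, fell from 1709, 1594 and 1703 to 143, 155 and 187 CPM (-3.37). Kcnj11, the channel pore, was at 41.9, 45.4 and 44.2 and 39.0, 43.0 and 36.7 CPM (-0.15, edgeR adjusted p = 0.075, and 0.0032 to 0.046 under the 5 alternatives that called it lower), and its partner Abcc8 fell (-0.92). Of 27 genes of sensing and coupling 11 were over 2-fold lower and 1, Prkca (1.37), higher. Of the ion channel genes, 18 of 52 were over 2-fold lower and 1, Kcnmb1 (2.94), higher. Kcnk16, a background potassium channel of β cells, went from 122, 114 and 132 to 4.52, 3.97 and 4.99 CPM (-4.77) and Cacna1d, an L-type calcium channel, fell by 1.81, whereas Cacna1c, the other one, rose (1.15).

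Receptors for hormones and nutrients fell in 24 of 37 cases, 20 over 2-fold, and 0 were over 2-fold higher (1 without cytokine replicate 3). Glp1r, the incretin receptor, went from 363, 392.4 and 375 to 80.3, 91.7 and 79.2 CPM (-2.17), Prlr, the prolactin receptor, from 288, 266 and 283 to 24.95, 26.8 and 29.3 CPM (-3.37), and Gpr119, a lipid receptor, from 39.3, 33.7 and 39.0 to 1.65, 1.23 and 1.41 CPM (-4.69). The growth factor receptors Insr and Igf1r rose slightly (0.44 and 0.60), and Vipr2 and Htr2b rose (0.91 and 2.01), the latter a call lost without cytokine replicate 4 (adjusted p = 0.079).

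**Figure D4:**
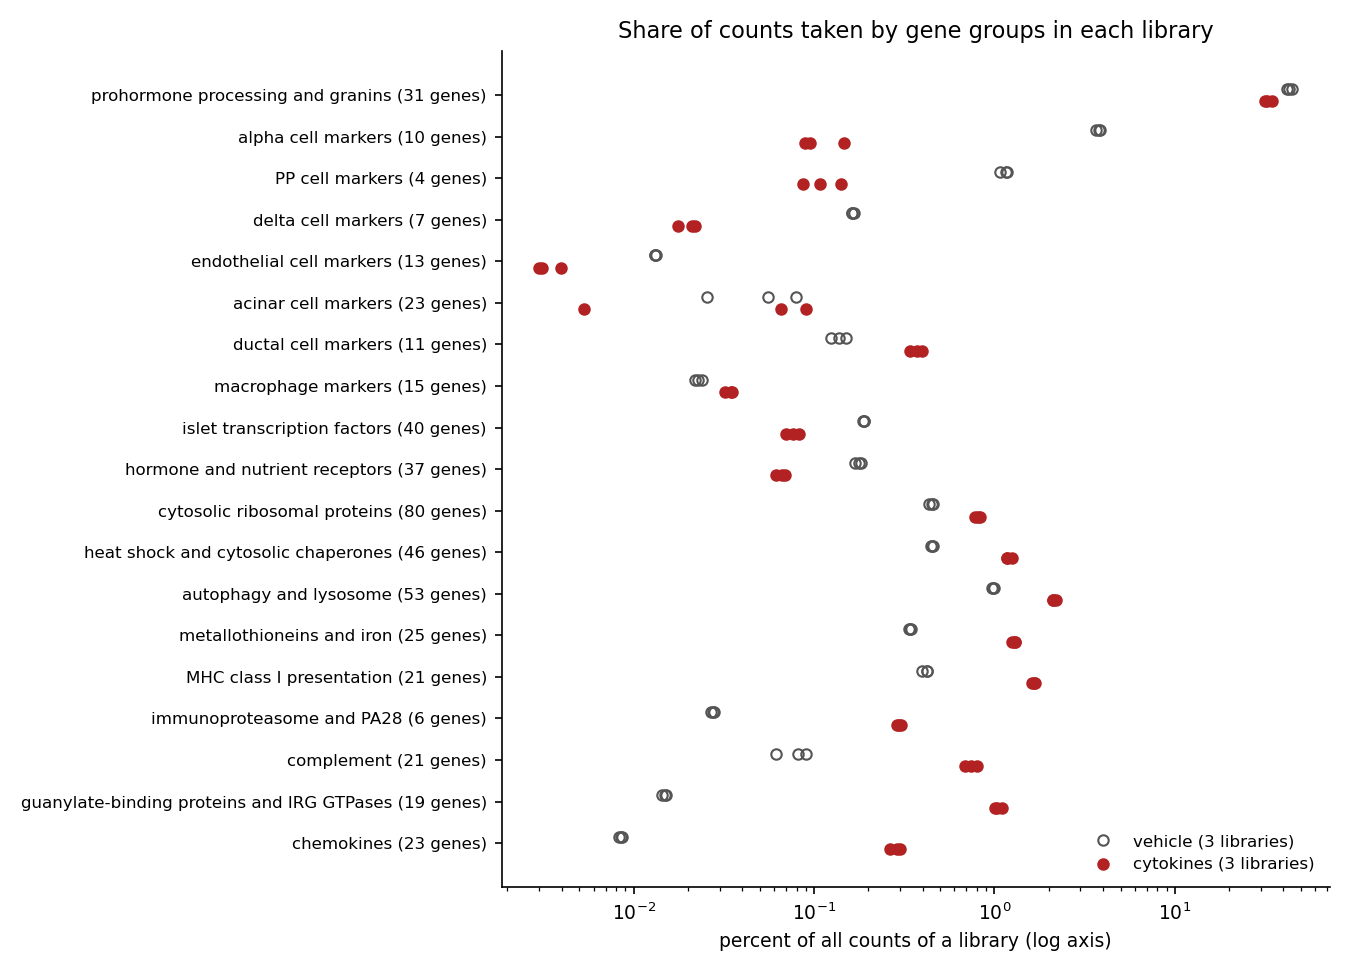
Points give the percent of all counts of a library, on a log axis, taken by the genes of 19 groups in each of 3 vehicle libraries (open) and 3 cytokine libraries (filled). The α-, δ-, PP- and endothelial cell markers lie lower with cytokines, chemokines and interferon-induced GTPases lie higher, and the acinar markers overlap, with cytokine replicate 1 the lowest.

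Other regulators changed in small sets. Of 31 immediate early and AP-1 genes 13 were over 2-fold higher, with Jun at 2.77 and Klf6 at 2.64, while Nr4a2 fell (-2.54). Of 23 clock genes 7 were called higher and 9 lower. By the over 2-fold test 7 were higher (30.4%) and 1 lower (4.35%, or 2 genes with upper quartile scaling), beside 10.6% and 11.5% of all genes. Nr1d1 rose from 26.9, 23.3 and 23.4 to 116, 116 and 116 CPM (2.24) and Per1 by 1.60, while Per3 and Cry2 fell by 1.98 and 1.03. Splicing factors were lower in 22 of 43 cases, against 37.2% of all genes, including Srsf6 (-1.47) and Srsf1 (-1.24), and Rbfox2 rose (2.11). By the over 2-fold test 5 were lower (11.6%) and 2 higher (4.65%), beside 11.5% and 10.6% of all genes. DESeq2 called 2 of them over 2-fold lower and 1 higher. Acly, which makes cytosolic acetyl-CoA, fell from 4205, 4204 and 3979 to 1377, 1380.1 and 1252 CPM (-1.63), against a rise of Elovl7 (2.90). Ptgs2, cyclooxygenase-2, rose from 2.42, 2.24 and 1.20 to 46.8, 65.2 and 70.7 CPM (4.95) and Ptges, the prostaglandin E synthase, by 3.00. Among 24 long noncoding RNAs the small nucleolar RNA hosts Snhg1, Snhg5 and Gas5 rose (2.96, 2.40 and 1.55), and the imprinted Peg13 fell (-2.002). Libraries did not record the strand, so antisense transcripts cannot be told from their partners.

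Markers of some other cell types moved with the treatment, and their part in the results above was not tested. All 13 endothelial markers fell, with a summed level of 132, 126 and 137 CPM with vehicle and 30.2, 32.3 and 42.9 CPM with cytokines, among them Kdr (-3.12) and Emcn (-3.79). Of 14 stellate and fibroblast markers 9 fell and 1, Dcn, rose (2.10), on summed levels of 231, 389 and 133 CPM and 84.1, 79.4 and 112 CPM, and the number that fell was 4 when vehicle replicate 2 (the highest) or cytokine replicate 3 was left out. The call of Dcn was lost without vehicle replicate 1 or 4 or cytokine replicate 4 (adjusted p = 0.061 to 0.076). Ductal genes rose in 6 of 11 cases, with Krt8 at 144, 123 and 127 and 897, 1077 and 1041 CPM (2.94) and Krt18 at 2.22, whereas Sox9 and Krt19 did not pass (Krt19 2.53, adjusted p = 0.1, though DESeq2 called it). Matrix proteases included steep rises, with Mmp3 at 0.822 and 109.9 CPM (7.07), while collagen genes such as Col3a1 (-3.16) and Col6a1 (-3.05) fell and 26 of the 51 did not pass.

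Among genes whose groups did not overlap, the largest gains in TPM were those of B2m (336 to 7861), Ftl1 (2492 to 8633), Sqstm1 (615 to 4236) and Cfb (45.3 to 3420.2). The largest losses, again without overlap, were those of Gcg (48233 to 1231), Ins1 (144731 to 99969), Ppy (32497 to 4112) and Pyy (9243 to 266). Ins1 remained the second gene by this measure in both groups. At the other end, 45 genes were switched on, meaning under 0.5 CPM in each vehicle library and at least 5 CPM in each cytokine library, and 17 were switched off by the mirror rule. With 0.25 CPM as the lower limit 26 were on and 6 off, and with 10 CPM as the upper limit also 26 and 6. Those on included Saa2, an acute-phase protein gene, with 1 count over the 3 vehicle libraries and 523 over the 3 cytokine libraries, Ifnl2, an interferon λ, with 1 and 413, and the transcription factor gene Batf2 at 0.170, 0.140 and 0.0921 and 30.0, 29.6 and 31.4 CPM. Those off included Sfrp5, a secreted inhibitor of WNT signalling, at 61.9, 59.0 and 68.5 and 0.161, 0.245 and 0.202 CPM (-8.26), the peptide gene Edn3 at 30.1, 31.3 and 25.8 and 0.121, 0.196 and 0 CPM (-8.01), and Avpr1b, a vasopressin receptor (-6.87).

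Motif matches in promoters were more frequent among genes that rose. Of the genes tested, 10692 had a promoter in the RefSeq table. An ISRE match lay in 7.68% of the 1120 promoters of genes over 2-fold higher, in 2.38% of the 1217 of genes over 2-fold lower and in 2.67% of all. The κB consensus lay in 8.66%, 4.60% and 4.57%, the AP-1 site in 8.75%, 4.60% and 4.55%, and the GAS in 8.12%, 5.09% and 6.07%. The ATF4 element was rarer, at 3.21%, 1.97% and 2.02%. Among the 131 promoters of over 2-fold higher genes with a log2 rise above 5 the ISRE share was 24.4%, and in the list of interferon-induced GTPases it was 10 of 12 promoters. The κB consensus lay in 9 of 21 promoters of NF-κB genes and 7 of 15 of MHC class I genes, and the ATF4 element in 8 of 32 of the integrated stress response. In the immunoproteasome list, 0 of 6 promoters held an ISRE and 0 a κB match. An ISRE lay in 1 of 7 promoters of interferon regulatory factors. Motifs can overlap one another, related genes share promoter sequence, and no test was run on these shares.

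**Figure D5:**
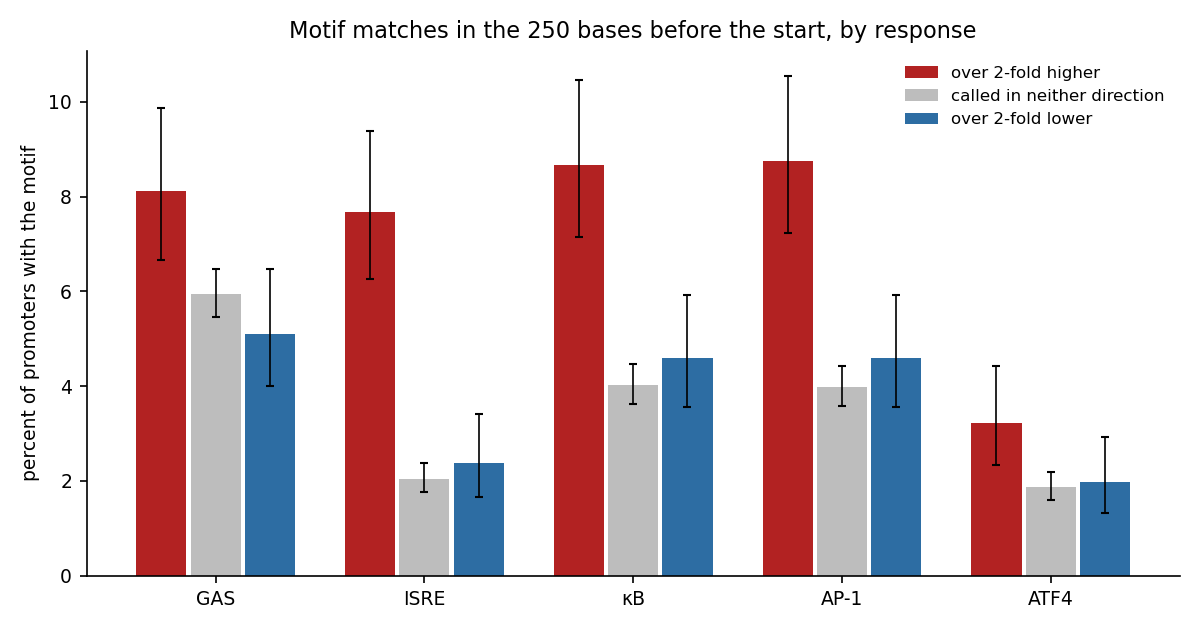
Bars give the percent of promoters with at least 1 match to each of 5 motifs in the 250 bases before the start, for genes called over 2-fold higher (red), in neither direction (grey) and over 2-fold lower (blue), with 95% Wilson intervals that cover counting error only. The red ISRE bar stands at 7.68% and the blue at 2.38%, and the ATF4 bars lie closest together.

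The cytokine response was also compared with that in the presence of ML351. The test of the difference between both responses called 1 of 14089 genes (0.0071%), with 1160 at an unadjusted p under 0.05, and DESeq2 called 44. The responses of Nos2, Irf1, Il1r1 and Slc2a2 with ML351 were 8.50, 4.29, -1.93 and -4.01, beside 8.29, 4.18, -2.01 and -3.95 without it, and these 4 differences did not pass (adjusted p = 0.82 to 0.96).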

How the data were processed

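RNA of cultured mouse islets was sequenced from 12 samples in 4 groups of 3 libraries, made with a kit that does not mark strand. The deposited values are raw counts per gene on mm10. The submitters' processing notes name STAR, featureCounts, Subread and DESeq2, with the versions not given in the sources used here. Groups and replicates come from the labels. Counts of all 12 libraries were fitted with edgeR 4.0.16 (R 4.3.3, limma 3.58.1; TMM scaling, robust quasi-likelihood) with 1 term per group and Benjamini-Hochberg adjustment over 14089 genes at 0.05. The low-count filter (filterByExpr) removed no gene. The over 2-fold test is glmTreat at a log2 fold of 1. Alternatives were other scalings, DESeq2 1.42.0, other filters, the 6 libraries alone, a replicate block and leaving out each library.

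CPM are counts scaled to library totals times TMM factors, and TPM were computed here from the counts and the exon lengths of GENCODE M21 (13589 symbols matched). The naming rule had set CPM per kilobase, and TPM, which differ from it by 1 factor per library, were used in its place; by CPM per kilobase Ins1 precedes Gcg among the losses. Coordinates of genes are from that annotation on mm10. The fit was tested on simulated data for this comparison (13611 genes): of simulated 4-fold rises 94% were called, and of unchanged genes 0.0746%. The over 2-fold test called 90% of the 4-fold rises and 80% of the 4-fold falls. Only 200 genes were changed in the simulation, as many up as down, against 72.5% of genes called in the data. It therefore cannot show how scaling or false calls behave when most genes change. The comparison, the 63 gene lists and the tests were chosen with earlier results of these data known. The rule for naming a gene took, per list, the 6 best by p, any members left over by a count of 5 or fewer, the 10 largest gains and losses in TPM without overlap, the 8 largest changes switched on or off, and 26 preset genes. Named outside that rule, after their values were seen, were Abcc8, Aldh1l2, Ankrd10, Atf3, Cacna1c, Casp4, Ccl12, Ccnd1, Chgb, Cish, Col6a1, Cxcl1, Cxcl5, Ero1l, Gbp2b, Gpx3, Ifit3, Il1rap, Il1rn, Irak1, Isl1, Jun, Kcnmb1, Lcn2, Map3k7, Mki67, Mmp3, Nfkb2, Nkx6-1, Nlrc5, Odc1, Pcsk2, Pdk4, Per3, Prkca, Psmb6, Psmb7, Ptges, Ptgs2, Pycr1, Relb, Sat1, Slc2a1, Slc7a11, Sms, Socs2, Spp1, Tnfaip3 and Trp53. The promoter of Nos2 was not printed, and some genes are not reported here.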

Additional observations from a re-analysis of the deposited data

Results flagged for a closer look

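Ankrd10, which encodes an ankyrin repeat protein, was the 1 gene whose cytokine response differed with the inhibitor in the test of the difference itself. It was at 84.2, 80.5 and 88.9 CPM in vehicle replicates 1, 2 and 4 and 30.5, 29.6 and 31.9 CPM in cytokine replicates 1, 3 and 4. Its log2 fold change with cytokines was -1.46 without ML351 and -0.84 with it, a difference of 0.62 (edgeR adjusted p = 0.03). It was 1 call among 14089 genes, and the sensitivity of that count is given with the other settings.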

How the results depend on the processing

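Under the 14 alternative settings the model's counts held within 1.5 times: leaving out 1 library gave 4699 to 4888 genes higher, 4903 to 4963 lower, 1382 to 1491 over 2-fold higher and 1492 to 1537 over 2-fold lower. No gene called in both fits changed direction under any of them. A replicate block on the shared numbers gave 4760 higher, 4939 lower, 1373 over 2-fold higher and 1491 over 2-fold lower, but only numbers 1 and 4 occur in both groups and same-numbered libraries did not deviate together (correlations -0.21 and -0.14), so the numbers were not taken as pairs. The difference of the response with ML351 depended most on the setting, with 0 genes under library total scaling, 44 with DESeq2, 0 with the replicate block and 0 to 1 when 1 library was left out (0 without vehicle replicate 1 or 4 or cytokine replicate 1 or 4), and the cause was not tested. Genes switched on numbered 26 and those off 6 with limits of 0.25 and 5 CPM, and again 26 and 6 with 0.5 and 10 CPM, limits that admit fewer genes by construction. Of the named genes 22 lost their call and 44 gained one under some setting, 0 reversed, and 79 member counts in 29 lists moved by over 1.5 times. The medians of the tricarboxylic acid cycle and pyruvate entry list and of the matrix genes changed sign with scaling (matrix 0.01 to -0.11 with upper quartile). Genes of a few counts per library have wide errors, and 3 libraries a group limit all tests.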
